A study of Mus musculus with 44 samples.

Results

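The 9 genes described here are transporters that carry organic anions, bile acid conjugates and drugs across the hepatocyte membrane. They were taken by name from the count table of 35249 genes: Slco1a1 (ENSMUSG00000041698), Slco1a4 (ENSMUSG00000030237), Slco1b2 (ENSMUSG00000030236), Slco2b1 (ENSMUSG00000030737), Slc22a7 (ENSMUSG00000067144), Abcc2 (ENSMUSG00000025194), Abcc3 (ENSMUSG00000020865), Abcc4 (ENSMUSG00000032849) and Abcb1a (ENSMUSG00000040584). All 9 matched 1 identifier each, and all 9 passed the filter on low counts that left 14862 genes. The RNA came from whole liver of wild type (WT) mice, mice without Ripk3 (Ripk3KO) and mice without Mlkl (MlklKO). RIPK3 is the kinase and MLKL the membrane-breaking protein of necroptosis, a lytic form of programmed cell death. From 2 months of age, and for 6 months, mice ate either normal chow, called control, or food lacking choline, with little fat (CD-LFD) or much fat (CD-HFD). WT had 6 libraries on each diet. Ripk3KO had 6 on control, 3 for CD-LFD and 4 for CD-HFD, and MlklKO had 6 on control, 4 for CD-LFD and 3 for CD-HFD. The labels name neither the strain nor the sex, nor the tissue in which a knockout was made. Because the control mice ate chow, the lack of choline cannot be told apart from other differences between chow and the choline-deficient diets.

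Hepatocytes take up bile acids, bilirubin, hormones and drugs from portal blood through carriers on the sinusoidal (blood-facing) membrane. Slco1a1, Slco1a4, Slco1b2 and Slco2b1 encode organic anion transporting polypeptides of that membrane (Oatp1a1, Oatp1a4, Oatp1b2 and Oatp2b1), and Slc22a7 encodes the organic anion transporter Oat2. Export is driven by ATP. Abcc2 (Mrp2) moves conjugates across the canalicular membrane into bile, Abcb1a is a P-glycoprotein that exports drugs at the same membrane, and Abcc3 (Mrp3) and Abcc4 (Mrp4) return conjugates to the blood. In injured or cholestatic liver, uptake carriers are typically low and the basolateral pumps high. Oatp1a1 in mouse liver is known for its strong dependence on male-pattern growth hormone signalling, and NRF2, the regulator of the oxidative stress response, is known to act on several Abcc genes.

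The 250 bases before the RefSeq transcription start are shown for 4 members that span the responses described below: the uptake carriers Slco1a1 and Slco1b2, whose RNA was lower on CD-HFD, the pump Abcc4, whose RNA was higher, and the pump Abcc2, for which no diet comparison passed the test. RefSeq lists 2 promoters for Abcc4, of which the upstream one is shown. The sequences are RefSeq's on GRCm38.p6, read 5′ to 3′ in the direction of the gene, and capitals mark matches on either strand to the 7 motifs searched. Slco1a1 is chr6:141946963-141947212 on the minus strand, Slco1b2 is chr6:141629268-141629517 on the plus strand, Abcc4 is chr14:118706220-118706469 on the minus strand, and Abcc2 is chr19:43782058-43782307 on the plus strand.
Slco1a1: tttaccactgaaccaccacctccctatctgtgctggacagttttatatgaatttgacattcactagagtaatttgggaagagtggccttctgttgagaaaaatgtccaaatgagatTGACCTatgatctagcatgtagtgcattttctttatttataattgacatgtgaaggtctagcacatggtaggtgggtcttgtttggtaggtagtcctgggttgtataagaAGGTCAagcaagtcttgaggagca
Slco1b2: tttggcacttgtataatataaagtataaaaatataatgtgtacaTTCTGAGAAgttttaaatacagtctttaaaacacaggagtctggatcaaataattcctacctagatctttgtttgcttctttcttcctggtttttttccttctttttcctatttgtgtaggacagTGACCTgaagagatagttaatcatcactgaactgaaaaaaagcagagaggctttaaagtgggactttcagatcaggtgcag
Abcc4: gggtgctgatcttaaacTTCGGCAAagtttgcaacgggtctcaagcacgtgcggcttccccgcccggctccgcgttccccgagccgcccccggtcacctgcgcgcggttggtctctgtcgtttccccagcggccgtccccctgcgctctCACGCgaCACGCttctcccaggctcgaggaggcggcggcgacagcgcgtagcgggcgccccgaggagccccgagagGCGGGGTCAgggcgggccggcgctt
Abcc2: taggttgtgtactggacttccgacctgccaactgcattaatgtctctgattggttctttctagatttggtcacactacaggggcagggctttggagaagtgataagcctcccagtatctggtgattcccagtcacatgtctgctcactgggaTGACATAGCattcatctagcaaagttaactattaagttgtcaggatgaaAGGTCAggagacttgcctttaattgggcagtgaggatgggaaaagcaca
The motifs searched were the antioxidant response element core (TGACNNNGC, which NRF2 binds), STAT5 (TTCNNNGAA), HNF4A (CAAAGTCCA), CEBP (TTGCNNAA), AHR (GCGTG), the D-box (TTANNTAA) and the nuclear receptor motif AGGTCA. The antioxidant core lay at -98 to -90 in Abcc2 and at -25 to -17 in the Abcc4 promoter shown, counted from the start (and at -23 to -15 in the other Abcc4 promoter), and 10.2% of 32536 promoters of the same length hold it. Slco1b2 had a STAT5 match at -206 to -198 (7.04% of promoters). The nuclear receptor motif, which 14% of promoters hold, was in 3 of the 4 promoters shown: Slco1b2 at -81 to -76, Abcc2 at -49 to -44, and Slco1a1 at -134 to -129 and -24 to -19. No other of the motifs was found in the Slco1a1 window. Abcc4 also had a CEBP match at -233 to -226 (9.57%) and AHR matches at -101 to -97 and -94 to -90 (28.3%). A match is a description of the letters and no evidence of binding. RefSeq promoters were matched for 7 of the 9 members, not for Abcc3 and Slc22a7.

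The depth of 43 libraries was 2476268 to 12471844 counts; that of WT CD-LFD replicate 3 was 88204703. Values below are CPM, the counts per 1 M counts of the library, scaled by TMM, a factor that corrects for RNA composition. Ripk3 was at most 1.26 CPM in Ripk3KO libraries, the value of Ripk3KO control replicate 5 as labelled, which is inside the WT control range of 0.511 to 4.89 CPM. Mlkl was at 12.5 CPM in MlklKO CD-HFD replicate 1 as labelled, against 4.83 and 2.80 CPM in the other MlklKO CD-HFD libraries and 14.3 to 17.7 CPM in WT on that diet. Without both of these libraries, calls were lost for Abcb1a in Ripk3KO on CD-LFD (1.11, adjusted p = 0.0621) and Abcb1a in MlklKO for CD-HFD against CD-LFD (1.11, adjusted p = 0.0865), and for no other member value. Hepatocyte markers were abundant in the tissue, with a summed level of 65741 CPM or more in every WT library. The clock ratio (log2 Arntl over Dbp) put 4 of 6 WT control, 6 of 6 WT CD-LFD and 1 of 6 WT CD-HFD libraries on its high side and 0 of 26 knockout libraries, and fits with the clock side as a covariate were made as an alternative. Ddx3y, a Y-linked gene, exceeded Xist in 44 of 44 libraries.

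Per kilobase of exon, Slco1b2 was the most abundant member in WT control liver, at 301.9 ± 54.6 CPM per kb (SD, n = 6). Slco1a1 followed at 97.1 ± 28.9, Abcc2 at 72.8 ± 17.9 and Abcc3 at 67.7 ± 17.8 CPM per kb, and the ranges of these 3 neighbours overlapped. Slco2b1 was at 26.1 ± 6.33, Slco1a4 at 16.7 ± 3.35 and Slc22a7 at 15.8 ± 3.70 CPM per kb, each overlapping the next. The lowest were Abcc4 at 0.388 ± 0.0795 and Abcb1a at 0.374 ± 0.308 CPM per kb, which overlapped. On CD-HFD the WT order changed most for Slco1a1, which moved from rank 2 to rank 7, at 5.62 ± 4.55 CPM per kb, while Slco1b2 (123 ± 25.0), Abcc2 (55.0 ± 10.9) and Abcc3 (33.9 ± 3.98) held the top 3 ranks without overlap between neighbours. The least variable member within groups was Slco2b1, with a median coefficient of variation of 14.7% over the 9 groups, and the most variable was Abcc4, at 38.9%.

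In WT liver on CD-HFD, 8 of 9 members differed from control by edgeR's quasi-likelihood test (adjusted p under 0.05 over all genes): 6 fell and 2 rose, where 47.7% of all 14862 genes were called (24.1% lower, 23.5% higher). The uptake carriers Slco1a1, Slco1a4, Slco1b2, Slco2b1 and Slc22a7 and the basolateral pump Abcc3 were lower, and the pumps Abcb1a and Abcc4 were higher. In Ripk3KO 6 of 9 were called, 4 lower and 2 higher (of all genes 46.3%, 21.7% lower and 24.6% higher), and in MlklKO 5 of 9, 3 lower and 2 higher (45.2%, 20.3% lower and 24.9% higher). Between control and CD-HFD groups, 4 members lay wholly below and 2 wholly above in WT (6.63% and 14.3% of all genes), 3 and 1 in Ripk3KO (15.9% and 20.6%), and 2 and 2 in MlklKO (17.2% and 22.2%). The median log2 change over the 9 members was -0.80 in WT, -0.61 in Ripk3KO and -0.28 in MlklKO, beside -0.07, -0.05 and -0.04 over all genes. The low-fat diet gave 6 calls in WT (4 lower, 2 higher; of all genes 27.7%, 14% lower and 13.7% higher). It gave 3 in Ripk3KO (2 lower, 1 higher; 24.1%, 10.1% lower and 14% higher) and 3 in MlklKO (1 lower, 2 higher; 37.9%, 18.3% lower and 19.7% higher). The diet comparisons within a genotype share their control libraries. In MlklKO, 5 of 9 members is close to the share of all genes called.

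**Figure D1:**
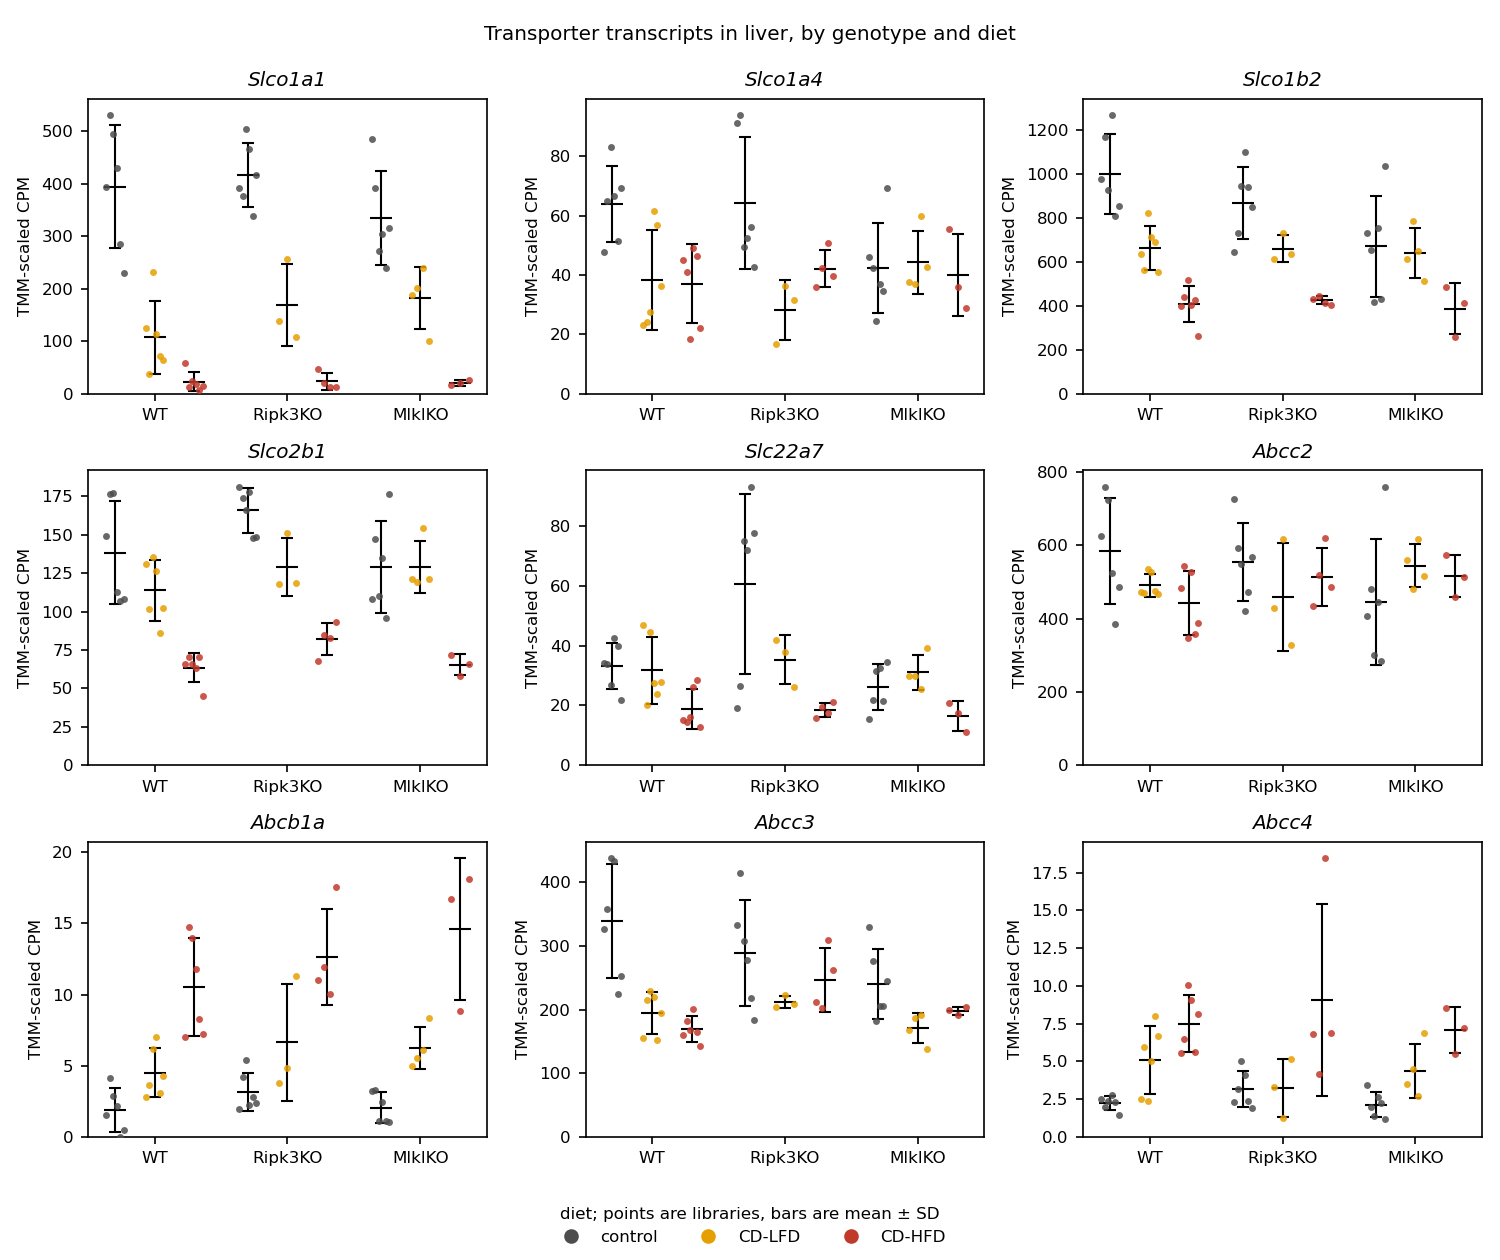
TMM-scaled CPM of each of the 9 members (1 panel each) in every library, by genotype and diet, with bars for mean ± SD. Slco1a1 falls to a mean of 22.8 CPM or near it on CD-HFD in each genotype, and Abcb1a lies above its control range on CD-HFD in each genotype.

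Slco1a1 showed the steepest fall of the 9, and did so in all 3 genotypes. In WT control liver it ranged from 230 to 530 CPM with a median of 412, on CD-LFD from 37.3 to 231 (median 92.7), and on CD-HFD from 7.57 to 58.9 (median 16.7). The control and CD-HFD ranges were far apart, and the CD-LFD range met the control range only at 231 against 230 CPM. In Ripk3KO the control range was 337 to 505 CPM (median 405), the 3 CD-LFD libraries gave 139, 256 and 109, and the 4 CD-HFD libraries gave 46.8, 20.7, 13.6 and 13.1. In MlklKO the control range was 239 to 484 CPM (median 310), CD-LFD gave 188, 201, 239 and 101, and CD-HFD gave 15.7, 20.2 and 26.1. The chow and CD-HFD groups did not overlap in any genotype. The log2 change on CD-HFD was -4.12 (SE 0.403, adjusted p = 4.07e-11) in WT, -4.16 (SE 0.481, adjusted p = 2.73e-09) in Ripk3KO and -4.01 (SE 0.544, adjusted p = 8.82e-08) in MlklKO, by edgeR. On CD-LFD it was -1.87 (adjusted p = 0.000156) in WT and -1.31 (adjusted p = 0.0338) in Ripk3KO, and in MlklKO the value of -0.88 did not pass (adjusted p = 0.082). The Ripk3KO call on CD-LFD was lost without Ripk3KO control replicate 3 or 4 (adjusted p = 0.0568 and 0.0502) or Ripk3KO CD-LFD replicate 1 or 3 (0.126 and 0.206), and with scaling to hepatocyte markers (-0.90, adjusted p = 0.101). The log2 difference of CD-HFD from CD-LFD was -2.25, -2.85 and -3.14 in WT, Ripk3KO and MlklKO, with adjusted p-values no higher than 0.000126. Of the 50-base stretches of Slco1a1 transcripts, 2.15% also occur in another gene, most of them in Slco1a4 and Slco1a5.

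Slco1b2, the main hepatic carrier of unconjugated bile acids and many drugs among these genes, fell on CD-HFD in every genotype. WT control libraries ranged from 809 to 1265 CPM (median 949), CD-LFD from 551 to 821 (median 661) and CD-HFD from 261 to 515 (median 414). In Ripk3KO the control range was 644 to 1098 CPM and CD-HFD gave 432, 446, 414 and 404. In MlklKO the control range was wider, 416 to 1033 CPM, and CD-HFD gave 486, 258 and 412, so that these groups overlapped. The other genotypes showed no overlap. The log2 change on CD-HFD was -1.30 (SE 0.182, adjusted p = 1.54e-07) in WT, -1.03 (SE 0.207, adjusted p = 7.4e-05) in Ripk3KO and -0.80 (SE 0.228, adjusted p = 0.00386) in MlklKO. On CD-LFD the WT change of -0.59 passed (adjusted p = 0.0118), while -0.40 in Ripk3KO and -0.07 in MlklKO did not. With library size as the only scaling the WT value on CD-LFD was -0.29 (adjusted p = 0.195) and the MlklKO value on CD-HFD -0.28 (adjusted p = 0.292). Fitted on the compared groups alone, the MlklKO value on CD-HFD was -0.70 (adjusted p = 0.0728). When libraries were scaled to hepatocyte markers, the CD-HFD fall passed in WT only (-0.53, adjusted p = 0.0131), with -0.21 (adjusted p = 0.386) in Ripk3KO and 0.11 (adjusted p = 0.664) in MlklKO, and the WT value on CD-LFD was -0.18 (adjusted p = 0.473).

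Slco2b1, a carrier of steroid sulfates and statins, was lower on CD-HFD but not called on CD-LFD in any genotype. WT control ranged from 107 to 177 CPM (median 131), CD-LFD from 86.1 to 136 (median 114) and CD-HFD from 45.3 to 70.4 (median 65.9). Ripk3KO control ranged from 148 to 181 CPM, with 118, 151 and 118 for CD-LFD and 67.6, 85, 83 and 93.2 for CD-HFD. MlklKO control ranged from 95.9 to 176 CPM, with 121, 119, 154 and 121 for CD-LFD and 71.7, 58.3 and 66.1 for CD-HFD. In each genotype all CD-HFD libraries lay below all control and all CD-LFD libraries. The CD-HFD change was -1.13 (SE 0.149, adjusted p = 4.42e-08), -1.01 (SE 0.169, adjusted p = 4.26e-06) and -0.98 (SE 0.188, adjusted p = 4.31e-05) in WT, Ripk3KO and MlklKO. Against CD-LFD it was -0.84 (adjusted p = 3.75e-05), -0.65 (adjusted p = 0.0263) and -0.98 (adjusted p = 0.000342). The Ripk3KO call against CD-LFD was lost without Ripk3KO CD-LFD replicate 1 or 2 (adjusted p = 0.0514 and 0.176) or Ripk3KO CD-HFD replicate 1 (0.0944). The CD-LFD change from control was -0.28 in WT (95% interval -0.58 to 0.01), -0.36 in Ripk3KO (-0.73 to 0.00) and 0.00 in MlklKO (-0.33 to 0.33). Without WT control replicates 5 and 6 the WT value was -0.43 and passed (adjusted p = 0.0198). When scaled to hepatocyte markers, the CD-HFD fall passed in WT only (-0.34, adjusted p = 0.0249), with -0.20 (adjusted p = 0.234) in Ripk3KO and -0.06 (adjusted p = 0.751) in MlklKO.

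Slco1a4, which carries bile acids, cardiac glycosides and drugs, showed less even differences. They were smaller than those of Slco1b2 and Slco2b1 on CD-HFD, but larger on CD-LFD in WT and Ripk3KO. WT control ranged from 47.9 to 83.3 CPM (median 65.8), CD-LFD from 23.0 to 61.5 (median 32.0) and CD-HFD from 18.3 to 49.1 (median 43.1), so control overlapped CD-HFD narrowly and CD-LFD more widely. In WT it fell by 0.75 (adjusted p = 0.0298) on CD-LFD and by 0.79 (adjusted p = 0.0116) on CD-HFD, on the log2 scale. In Ripk3KO the control libraries gave 42.8 to 93.8 CPM (median 54.3), CD-LFD 16.9, 36.3 and 31.7, and CD-HFD 35.8, 42.2, 50.6 and 39.7. The Ripk3KO change was -1.18 on CD-LFD (SE 0.338, adjusted p = 0.00966) and -0.61 on CD-HFD, which did not pass (adjusted p = 0.0859). In MlklKO the control libraries gave 24.5 to 69.2 CPM (median 39.7), a difference of -0.60 from WT that did not pass (adjusted p = 0.0833). The MlklKO changes with diet were 0.07 (95% interval -0.52 to 0.65) on CD-LFD and -0.08 (-0.73 to 0.57) on CD-HFD. The WT call on CD-LFD was lost without WT control replicate 3 or WT CD-LFD replicate 1, 2, 3 or 6 (adjusted p 0.0554 to 0.0788), and that in Ripk3KO without Ripk3KO CD-LFD replicate 1 (0.0873). Scaled to hepatocyte markers, neither WT change passed (CD-LFD -0.29, adjusted p = 0.422; CD-HFD -0.06, adjusted p = 0.851), nor did that in Ripk3KO on CD-LFD (-0.72, adjusted p = 0.0961), while the MlklKO value on CD-HFD turned to 0.80 (adjusted p = 0.0285). With library size as the only scaling the WT changes became -0.42 (adjusted p = 0.227) and -0.31 (adjusted p = 0.331), and with the clock side as a covariate that on CD-LFD was -0.61 (adjusted p = 0.106).

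Slc22a7, the uptake carrier of nucleotides, prostaglandins and orotate, was lower on CD-HFD in WT and Ripk3KO under TMM, and in Ripk3KO but not WT when scaled to hepatocyte markers (-0.90, adjusted p = 0.00561, and -0.06, adjusted p = 0.832). WT control ranged from 21.8 to 42.4 CPM (median 34.0), CD-LFD from 20.1 to 46.7 (median 27.6) and CD-HFD from 12.8 to 28.5 (median 15.7). The Ripk3KO control libraries gave 19.2, 26.6, 74.8, 71.8, 93.0 and 77.5 CPM, the CD-LFD libraries 41.9, 37.7 and 26.2, and the CD-HFD libraries 15.8, 19.3, 17.4 and 21.2. Replicates 1 and 2 of Ripk3KO control were thus 19.2 to 26.6 CPM where the other 4 were 71.8 to 93.0. The same 2 libraries were the highest of their group for Slco1a4 (91.3 and 93.8 CPM, against 42.8 to 56.2) and the lowest for Slco1b2 (644 and 728 CPM, against 850 to 1098). MlklKO control ranged from 15.5 to 34.5 CPM, with 29.8, 30.0, 25.3 and 39.2 for CD-LFD and 20.9, 17.4 and 11.2 for CD-HFD. The CD-HFD change of Slc22a7 was -0.80 (SE 0.277, adjusted p = 0.0163) in WT and -1.71 (SE 0.319, adjusted p = 2.48e-05) in Ripk3KO, and -0.68 in MlklKO did not pass (adjusted p = 0.109). With library size alone the WT value was -0.32 (adjusted p = 0.314), and among low-clock-ratio libraries only it was -0.91 (adjusted p = 0.0618). On CD-LFD no change was called, and the Ripk3KO value of -0.79 (adjusted p = 0.0832) passed without Ripk3KO control replicate 1 (-0.97, adjusted p = 0.0183) or 2 (-0.94, adjusted p = 0.0327).

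Abcc2, the canalicular conjugate pump, was called in no contrast under TMM, though it was higher on CD-HFD in Ripk3KO (0.71) and MlklKO (1.12) when scaled to hepatocyte markers. WT control ranged from 386 to 760 CPM (median 576), CD-LFD from 468 to 537 (median 474) and CD-HFD from 348 to 544 (median 437). Ripk3KO CD-HFD libraries gave 434, 519, 621 and 485 CPM against 422 to 727 on control, and MlklKO CD-HFD libraries gave 574, 459 and 513 against 285 to 758. All these ranges overlapped. None of the 6 changes from control passed the test. The CD-HFD change was -0.40 in WT (95% interval -0.77 to -0.03, adjusted p = 0.0655), -0.11 in Ripk3KO (-0.52 to 0.31) and 0.21 in MlklKO (-0.24 to 0.66). The WT value passed the threshold without WT control replicate 5 (-0.50, adjusted p = 0.0233) or 6 (0.0436), or without WT CD-HFD replicate 2 (0.0424) or 4 (0.0484). On CD-LFD the MlklKO value passed without MlklKO control replicate 6 (0.50, adjusted p = 0.0321) and with scaling to hepatocyte markers (0.56, adjusted p = 0.0292). Among the proteins that hold Abcc2 and other carriers in the membrane, radixin (Rdx), its canalicular anchor, fell by 1.24 in WT on the log2 scale, while the other members of the ezrin family, Ezr and Msn, rose by 2.31 and 1.73. Of the 6 scaffold and anchor genes tested, 2 rose and 3 fell in WT and Ripk3KO, and 2 rose and 1 fell in MlklKO, where 47.7%, 46.3% and 45.2% of all genes were called in WT, Ripk3KO and MlklKO. Scaled to hepatocyte markers, 3, 2 and 3 of the 6 were higher and 0 lower, beside 62.0%, 63.1% and 65.9% of all genes higher and 3.67%, 2.49% and 2.23% lower, and Rdx in WT was at -0.53 (adjusted p = 0.0606). Ezr is also expressed in bile duct cells and Msn in leukocytes, whose markers were higher in the same libraries, and their part in these values was not tested.

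Abcb1a, a P-glycoprotein of low abundance in healthy hepatocytes, rose on both choline-deficient diets in each genotype. In WT control it had 0 to 17 counts per library, or 0 to 4.15 CPM (median 1.84), against 2.79 to 7.01 (median 3.94) on CD-LFD and 7.04 to 14.7 (median 10) on CD-HFD. Ripk3KO control ranged from 1.94 to 5.38 CPM, with 3.75, 4.85 and 11.3 for CD-LFD and 11, 12, 10.1 and 17.6 for CD-HFD. MlklKO control ranged from 1.04 to 3.26 CPM, with 5, 5.51, 6.09 and 8.34 in the CD-LFD group and 16.7, 8.87 and 18.1 in the CD-HFD group. In each genotype, all CD-HFD libraries were above all control libraries. The CD-HFD change was 2.39 (SE 0.38, adjusted p = 1.53e-06) in WT, 2.00 (SE 0.369, adjusted p = 2.17e-05) in Ripk3KO and 2.89 (SE 0.407, adjusted p = 1.9e-07) in MlklKO. The CD-LFD change was 1.20 (adjusted p = 0.0199) in WT, 1.14 (adjusted p = 0.0392) in Ripk3KO and 1.67 (adjusted p = 0.00136) in MlklKO. The Ripk3KO call on CD-LFD rested on CD-LFD replicate 3, without which the change was 0.43 (adjusted p = 0.624). It was also lost without Ripk3KO control replicate 1, 4, 5 or 6 (adjusted p 0.0636 to 0.0772), and the WT call was lost without WT control replicate 1 (0.054) or without WT control replicates 5 and 6 together (0.80, adjusted p = 0.0869). Abcb1a shares 17% of its 50-base stretches with other genes, most with its neighbours Abcb1b and Abcb4, so reads could be split between them, and its values are uncertain to that extent. Abcb1b, the paralog, went from 1.41 ± 0.582 CPM in WT control to 2.90 ± 1.07 on CD-HFD (SD, n = 6; log2 change 0.97, adjusted p = 0.0297), and its values of -0.17 in Ripk3KO and -0.29 in MlklKO did not pass.

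Abcc3, the basolateral pump of glucuronides, fell in WT on both diets under TMM. Scaled to hepatocyte markers, neither WT value passed (CD-LFD -0.36, adjusted p = 0.0992; CD-HFD -0.21, adjusted p = 0.279), nor did the MlklKO value on CD-LFD (-0.20, adjusted p = 0.419). WT control ranged from 225 to 438 CPM (median 343), CD-LFD from 153 to 229 (median 204) and CD-HFD from 143 to 201 (median 166), the last without overlap with control. Its change was -0.80 (SE 0.17, adjusted p = 0.000449) for CD-LFD and -1.0 (SE 0.171, adjusted p = 5.77e-06) for CD-HFD. In Ripk3KO the control libraries gave 184 to 414 CPM (median 293), CD-LFD 204, 223 and 210, and CD-HFD 212, 202, 310 and 262. In MlklKO the control libraries gave 181 to 330 CPM (median 225), CD-LFD 168, 186, 191 and 139, and CD-HFD 199, 191 and 204. The knockout groups on CD-HFD lay inside their control ranges under TMM. When scaled to hepatocyte markers, their values turned and passed as higher (Ripk3KO 0.59, adjusted p = 0.00633; MlklKO 0.65, adjusted p = 0.0056). Under TMM the CD-HFD changes there were -0.23 (95% interval -0.61 to 0.15, adjusted p = 0.331) and -0.28 (-0.71 to 0.14, adjusted p = 0.28). On CD-LFD they were -0.45 (adjusted p = 0.117) in Ripk3KO and -0.49 (adjusted p = 0.039) in MlklKO. The MlklKO call was lost without any of MlklKO control replicates 1, 2 and 6 or MlklKO CD-LFD replicates 1, 2 and 4 (adjusted p 0.0502 to 0.132).

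Abcc4, the basolateral pump of bile acid conjugates and cyclic nucleotides, rose on CD-HFD in each genotype from a low level of 5 to 18 counts per WT control library. WT control ranged from 1.47 to 2.77 CPM (median 2.33), CD-LFD from 2.38 to 8.04 (median 5.49) and CD-HFD from 5.55 to 10 (median 7.30). Ripk3KO control ranged from 1.93 to 5.05 CPM, with 3.33, 1.26 and 5.14 for CD-LFD and 6.83, 4.17, 18.4 and 6.91 for CD-HFD. MlklKO control ranged from 1.19 to 3.45 CPM, with 3.48, 4.47, 2.73 and 6.85 for CD-LFD and 8.53, 5.48 and 7.20 for CD-HFD. The CD-HFD and control ranges were apart in WT and MlklKO and overlapped in Ripk3KO, where replicate 2 on CD-HFD was at 4.17 CPM and replicate 3 at 18.4. The CD-HFD change was 1.74 (SE 0.359, adjusted p = 9.72e-05) in WT, 1.52 (SE 0.355, adjusted p = 0.000509) in Ripk3KO and 1.74 (SE 0.402, adjusted p = 0.000447) in MlklKO. Without Ripk3KO CD-HFD replicate 3 the Ripk3KO change was 0.90 (adjusted p = 0.0384). On CD-LFD the WT change of 1.15 (adjusted p = 0.0166) and the MlklKO change of 1.05 (adjusted p = 0.0293) passed, and 0.11 in Ripk3KO did not (95% interval -0.73 to 0.96). The WT call was lost without WT CD-LFD replicate 5 (adjusted p = 0.0615). The MlklKO call was lost without MlklKO control replicate 3 or 6 (0.0626 and 0.0637) or MlklKO CD-LFD replicate 2 or 4 (0.0533 and 0.155).

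**Figure D2:**
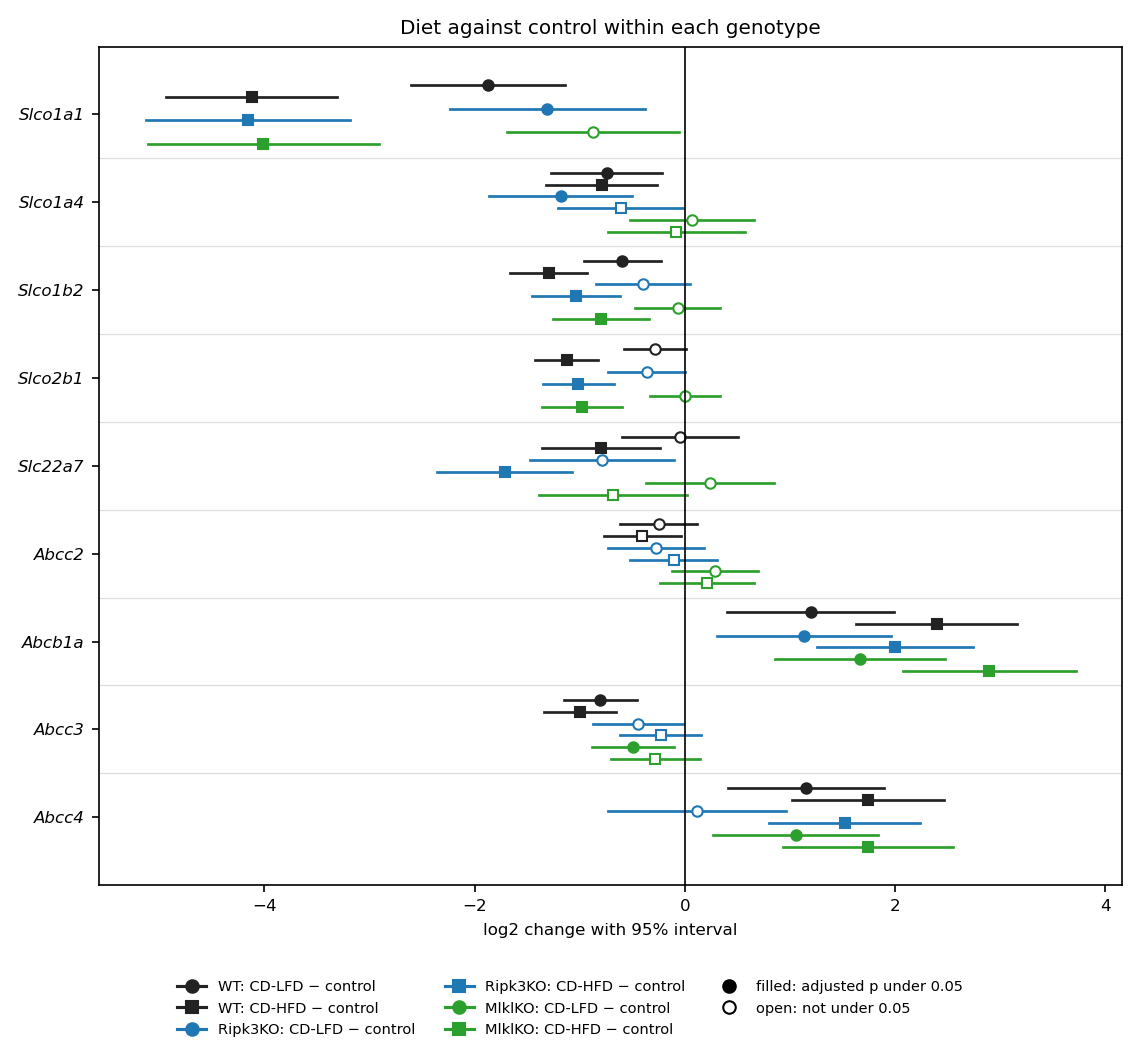
Log2 change of each member against control within each genotype on CD-LFD and CD-HFD, with 95% intervals on the horizontal axis; filled symbols passed an adjusted p of 0.05. Slco1a1 lies near -4 on CD-HFD in all 3 genotypes, Abcb1a and Abcc4 lie to the right of 0, and Abcc2 has no filled symbol; under scaling to hepatocyte markers Slco1b2 in MlklKO moves to 0.11.

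Both choline-deficient diets were also set against each other. CD-HFD differed from CD-LFD in 5 of 9 members in WT (4 lower, 1 higher; of all genes 21.1%, 7.4% lower and 13.7% higher). The count was 3 of 9 in Ripk3KO (2 lower, 1 higher; 8.83%, 3.08% lower and 5.75% higher) and 4 of 9 in MlklKO (3 lower, 1 higher; 23.7%, 9.14% lower and 14.6% higher). Slco1a1 and Slco2b1 were lower on CD-HFD than on CD-LFD in each genotype, as given above. Slco1b2 was lower than in the CD-LFD group, with a log2 difference of -0.70 (adjusted p = 0.00349) in WT and -0.73 (adjusted p = 0.0237) in MlklKO, and at -0.63 in Ripk3KO it did not pass (adjusted p = 0.0864). The MlklKO call was lost without MlklKO CD-LFD replicate 2 (adjusted p = 0.0783) or CD-HFD replicate 2 (0.133). Abcb1a was higher by 1.20 (adjusted p = 0.00504) in WT and 1.23 (adjusted p = 0.0265) in MlklKO. The Abcb1a call in MlklKO was lost without CD-LFD replicate 1, 2 or 3, without CD-HFD replicate 4, and without the library labelled MlklKO CD-HFD replicate 1 (adjusted p 0.0502 to 0.153). Abcb1a in Ripk3KO, at 0.86, passed without Ripk3KO CD-LFD replicate 3 (1.57, adjusted p = 0.043). With the clock side as a covariate the WT value for Abcb1a was 1.09 (adjusted p = 0.0897). Abcc4 was higher by 1.41 (adjusted p = 0.0319) in Ripk3KO, and by 0.79 (adjusted p = 0.27) without Ripk3KO CD-HFD replicate 3. Leaving out Ripk3KO CD-LFD replicate 1 or 2 also ended that Abcc4 call (adjusted p = 0.106 and 0.231). Slc22a7 was lower in WT (log2 difference -0.75, adjusted p = 0.0411), a call lost without WT CD-LFD replicate 1 or 3 or WT CD-HFD replicate 1, 2, 3 or 6 (adjusted p 0.0822 to 0.138). With libraries scaled to hepatocyte markers, Slco1b2 (-0.35 in WT and -0.10 in MlklKO) and Slc22a7 (-0.41 in WT) did not pass, nor did Slco2b1 in Ripk3KO (-0.30) and MlklKO (-0.34).

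Cell type markers moved with the diets, and their part in the members' values was not tested. The scaling that follows uses the hepatocyte markers alone and does not address RNA from other cell types. Of 9 hepatocyte markers tested, 8 fell and 1 (Ahsg) rose on CD-HFD in WT, 7 fell in Ripk3KO and 5 fell in MlklKO, with median log2 changes of -0.86, -0.99 and -0.86. With library size as the only scaling, 4, 2 and 2 fell and 1 rose in each genotype, with medians of -0.38, -0.45 and -0.33. Their summed level was 104198 to 169216 CPM in WT control and 65741 to 106574 CPM in WT CD-HFD. Cholangiocyte markers (7 of 7 in each genotype), stellate and fibroblast markers (6 of 8 in each) and lymphocyte markers (4 of 7 in WT, 6 of 7 in each knockout) were higher on CD-HFD. Macrophage markers rose in 6, 6 and 7 of 10, and fell in 2, 1 and 0, in WT, Ripk3KO and MlklKO. The summed cholangiocyte level went from a range of 62.1 to 118 CPM in WT control to between 708 and 1163 CPM in WT CD-HFD, and the macrophage sum from 187 to 238 CPM to between 806 and 1977 CPM. Endothelial markers fell in 7 of 8, 6 of 8 and 1 of 8 under TMM. By library size alone 4, 3 and 0 fell and 1, 1 and 0 rose, and scaled to hepatocyte markers 2, 0 and 0 fell and 1, 1 and 3 rose. In bulk liver, fewer hepatocytes and less RNA per hepatocyte cannot be told apart.

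When libraries were scaled to the geometric mean of the hepatocyte markers instead, the median of all genes shifted by 0.76, 0.82 and 0.93 for CD-HFD against control in WT, Ripk3KO and MlklKO, to 0.70, 0.77 and 0.89. Of all genes 62.0%, 63.1% and 65.9% were then called higher and 3.67%, 2.49% and 2.23% lower, which is the background for the counts given under this scaling. Slco1a1 remained lower, at -3.26 (SE 0.378), -3.28 (SE 0.447) and -3.05 (SE 0.501), with adjusted p-values no higher than 1.67e-06. Abcb1a (3.23, 2.81 and 3.82) and Abcc4 (2.56, 2.36 and 2.66) were higher here too. Since this scaling moves the values of all genes upward on CD-HFD, it is no test of those rises. Slco1b2 became -0.53 (adjusted p = 0.0131) in WT, -0.21 (adjusted p = 0.386) in Ripk3KO and, with the sign turned, 0.11 (adjusted p = 0.664) in MlklKO. Slco2b1 became -0.34 (adjusted p = 0.0249), -0.20 (adjusted p = 0.234) and -0.06 (adjusted p = 0.751). Among the WT falls, Slco1a4 (-0.06, adjusted p = 0.851), Slc22a7 (-0.06, adjusted p = 0.832) and Abcc3 (-0.21, adjusted p = 0.279) no longer passed. Slc22a7 became -0.90 (adjusted p = 0.00561) in Ripk3KO and 0.22 (adjusted p = 0.525) in MlklKO. Slco1b2 and Slco2b1 in the knockouts thus changed by about as much as the hepatocyte markers did. Abcc2 was then higher in Ripk3KO (0.71, adjusted p = 0.00281) and MlklKO (1.12, adjusted p = 3.25e-05), and Abcc3 was higher in Ripk3KO (0.59, adjusted p = 0.00633) and MlklKO (0.65, adjusted p = 0.0056), a turned sign in 3 of these 4 values. Slco1a4 in MlklKO turned from -0.08 to 0.80 (adjusted p = 0.0285). Signs also turned, without a call under either scaling, for Abcc2 in WT (-0.40 to 0.39), Slco1a4 in Ripk3KO (-0.61 to 0.20) and Slc22a7 in MlklKO (-0.68 to 0.22). Relative to the median of all genes under that scaling, Slco1a1 was at -3.96, -4.05 and -3.94 and Slco1b2 at -1.22, -0.98 and -0.77. Under TMM these were -4.05, -4.11 and -3.97 and -1.23, -0.99 and -0.76. A scaling moves the median and the members alike, so this nearness was fixed in advance and is no check on the scaling. Scaling to library size alone shifted the median of all genes by 0.49, 0.53 and 0.53, turned no called member value, ended 10 of the calls over all contrasts and added 2 (Abcc2 in MlklKO on CD-HFD, 0.73, adjusted p = 0.00394, and Abcc3 in MlklKO for CD-HFD against CD-LFD, 0.60, adjusted p = 0.0257).

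**Figure D3:**
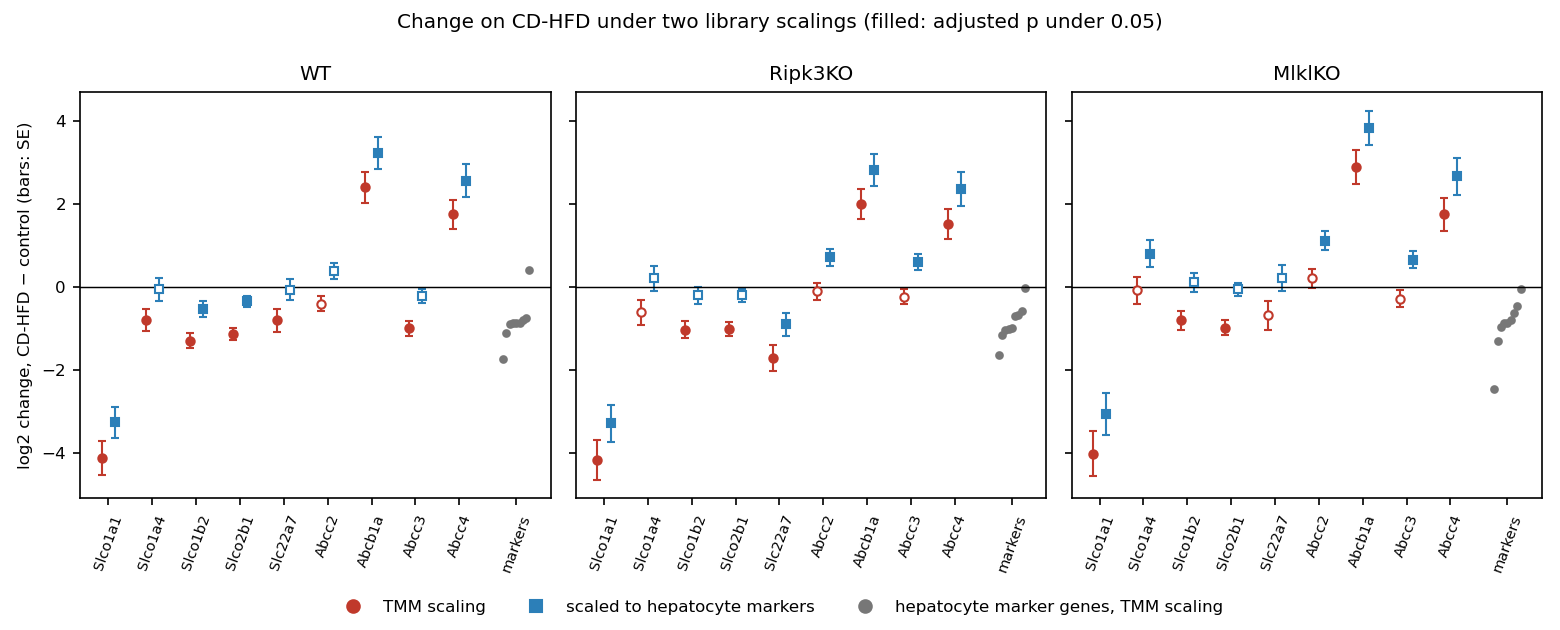
Log2 change on CD-HFD against control under TMM and under scaling to hepatocyte markers, by genotype, for the 9 members and, in grey, the hepatocyte marker genes; bars are SE. Slco1a1, Abcb1a and Abcc4 stay on their side of 0 in each genotype, while Slco1b2 in MlklKO crosses from -0.80 to 0.11.

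The knockouts were compared with WT on each diet to ask whether loss of RIPK3 or MLKL altered the members. On control chow no member was called in Ripk3KO (0 of 9; 4.47% of all genes called; 1 at an unadjusted p under 0.05, and 1 by DESeq2). That member was Slc22a7, at 60.5 ± 30.1 CPM in Ripk3KO and 33.1 ± 7.77 in WT (SD, n = 6), a log2 difference of 0.88 (95% interval 0.33 to 1.43, adjusted p = 0.0535). It passed without Ripk3KO control replicate 1 (1.07, adjusted p = 0.00744) or 2 (0.0166) or without WT control replicate 4 (0.0406). In MlklKO on chow 2 of 9 members were lower and 0 higher, where 27.1% of all genes were called (14.1% lower, 13% higher). Slco1b2 was at 670 ± 230 CPM in MlklKO against 998 ± 180 in WT (-0.58, adjusted p = 0.0149), and Abcc3 at 241 ± 55.2 against 339 ± 89.2 (-0.50, adjusted p = 0.0264). The groups overlapped for both genes. When scaled to hepatocyte markers, 5 of 9 were lower (Slco1a4, Slco1b2, Slco2b1, Abcc2 and Abcc3, -0.35 to -0.86), where 26.4% of all genes were called lower and 5.6% higher. On CD-LFD that scaling called Abcc3 lower in MlklKO than in WT (-0.59, adjusted p = 0.0387). Slco1b2 lost its call without MlklKO control replicate 3 (adjusted p = 0.0505), and Abcc3 without WT control replicate 3 or 4 or MlklKO control replicate 3, 4 or 5 (0.0571 to 0.0745). Fitted on the compared groups alone, neither passed (adjusted p = 0.0715 and 0.0857). Without MlklKO control replicate 6, Slco1a4 (-0.80, adjusted p = 0.0216) and Abcc2 (-0.61, adjusted p = 0.00689) were also lower in MlklKO, and Abcc2 was lower without WT control replicates 5 and 6 (-0.56, adjusted p = 0.0338). All 6 MlklKO control and 2 of 6 WT control libraries were on the low side of the clock ratio. With the clock side as a covariate 2528 genes were called between MlklKO and WT on chow, against 4029 in the main fit. The Slco1b2 and Abcc3 calls were not among the 3 that this covariate ended over all contrasts. Their values among low-clock-ratio libraries only are not given here.

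Under TMM, no member was called between a knockout and WT on either choline-deficient diet. On CD-LFD this was 0 of 9 in Ripk3KO (1.1% of all genes called) and 0 of 9 in MlklKO (2.56%), with 0 at an unadjusted p under 0.05 and 0 by DESeq2 in each. On CD-HFD it was 0 of 9 in Ripk3KO (0.377%; 2 at an unadjusted p under 0.05) and 0 of 9 in MlklKO (0%; 0 unadjusted), with 0 by DESeq2 in both. Mlkl itself was not called by edgeR in that MlklKO comparison (-1.29, adjusted p = 0.294), though the groups did not overlap. The lack of calls there therefore does not show that the members were unchanged. The 2 members with an unadjusted p under 0.05 in Ripk3KO were Abcc3 and Slco2b1. Abcc3 on CD-HFD was at 246 ± 49.7 CPM in Ripk3KO (n = 4) and 170 ± 19.9 in WT (n = 6), and each Ripk3KO library was above each WT library, a separation upward seen for 2.96% of all genes. The difference was 0.54 (95% interval 0.16 to 0.92, adjusted p = 0.258). Slco2b1 was at 82.2 ± 10.7 against 63.5 ± 9.32 CPM, a difference of 0.37 (0.04 to 0.70, adjusted p = 0.469). For Slco1a1 on CD-HFD the difference was 0.04 (-0.79 to 0.86) in Ripk3KO and -0.13 (-1.04 to 0.79) in MlklKO, intervals that leave room for differences of more than 0.75 on the log2 scale in either direction.

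**Figure D4:**
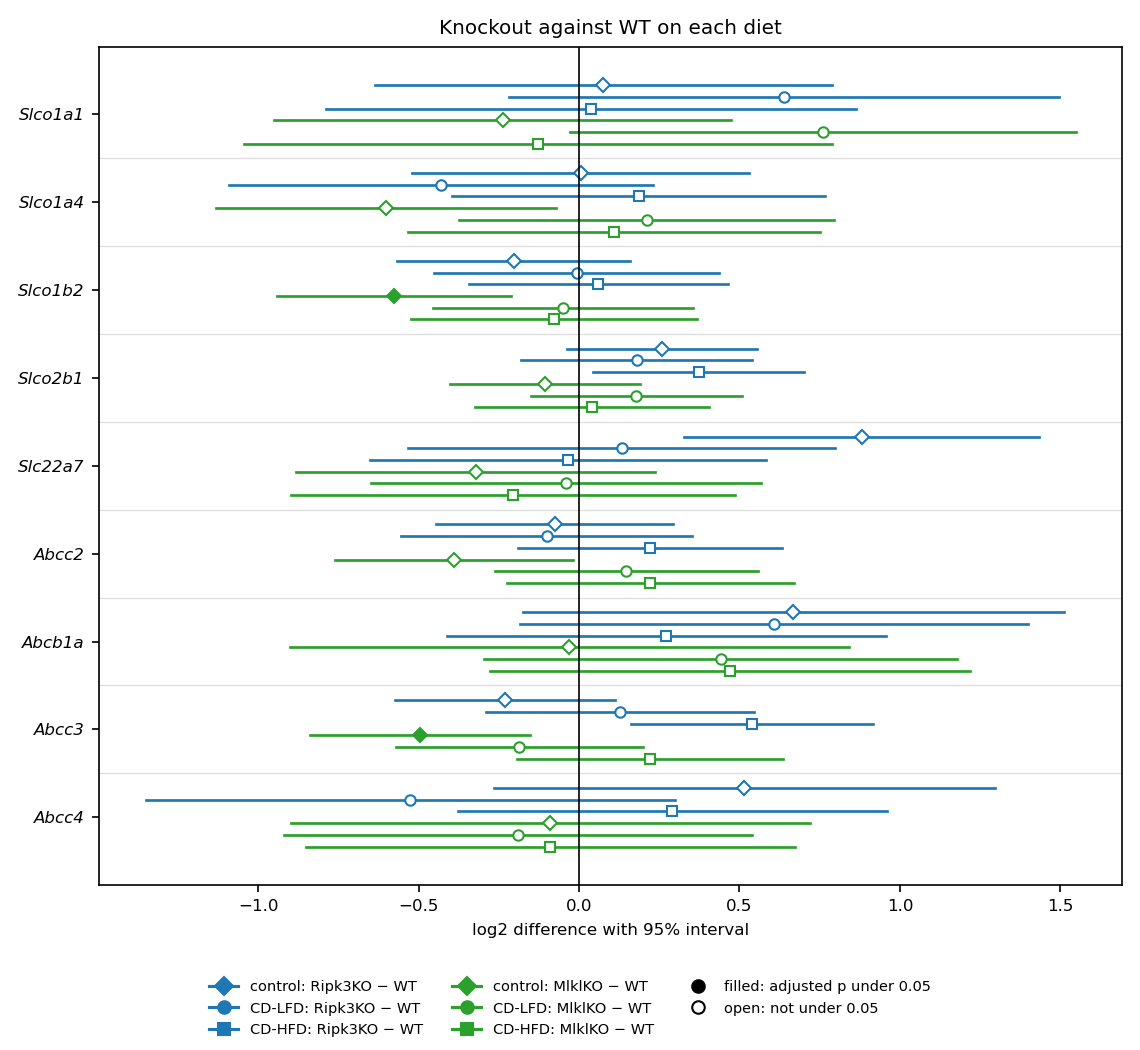
Log2 difference of Ripk3KO and MlklKO from WT for each member on each diet, with 95% intervals; filled symbols passed an adjusted p of 0.05. The filled symbols are Slco1b2 at -0.58 and Abcc3 at -0.50, both for MlklKO on control chow.

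Whether the diet response itself differed by genotype was tested by interaction terms, and 0 of 36 (9 members in 4 contrasts) passed. The share of all genes called was 0.0269% (Ripk3KO, CD-LFD), 8.45% (MlklKO, CD-LFD), 0.478% (Ripk3KO, CD-HFD) and 4.12% (MlklKO, CD-HFD). The members with an unadjusted p under 0.05 numbered 0, 1, 2 and 2 in that order, and DESeq2 called 0 in each. Abcc3 came nearest to the threshold. By edgeR its CD-HFD change was less negative than in WT by 0.77 in Ripk3KO (95% interval 0.26 to 1.28, adjusted p = 0.165) and by 0.72 in MlklKO (0.18 to 1.25, adjusted p = 0.115). Without WT control replicates 5 and 6, the shallowest of that group and the one with most genes detected, these became 0.97 (adjusted p = 0.0343) and 0.92 (adjusted p = 0.0235). Abcc2 passed in MlklKO without MlklKO control replicate 6, at 0.75 (adjusted p = 0.0382) on CD-LFD and 0.83 (adjusted p = 0.0384) on CD-HFD, and with that library stood at 0.54 and 0.61. For Slco1a1 on CD-HFD the interaction was -0.04 (-1.13 to 1.05) and 0.11 (-1.05 to 1.27). Both interactions of a diet share the WT libraries.

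Other transporters of these membranes also included genes that fell and genes that rose. Of all genes, 47.7%, 46.3% and 45.2% were called on CD-HFD in WT, Ripk3KO and MlklKO (24.1%, 21.7% and 20.3% lower, 23.5%, 24.6% and 24.9% higher), the background for the counts under TMM here and in the lists of regulators. Of 11 other uptake carriers tested (of 14 listed), 1 rose and 6 fell on CD-HFD in WT, and 1 rose and 3 fell in each knockout, with medians of -0.62, -0.36 and -0.45. Slc10a1, the sodium-dependent bile acid carrier Ntcp, went from 458 ± 209 CPM in WT control to 119 ± 33.8 in WT CD-HFD (SD, n = 6). Its log2 change was -1.94, -1.92 and -1.94 in WT, Ripk3KO and MlklKO, with adjusted p-values no higher than 5.87e-05 and no overlap in any of them. Slc22a30, an organic anion carrier of the Slc22 family, changed by -2.03, -2.01 and -1.69, again without overlap. Slco3a1, a more widely expressed family member, rose by 1.63, 1.12 and 1.44 (adjusted p 0.00183 or less). Of 13 other efflux pumps and exporters tested (of 14), 5 rose and 7 fell in WT, 3 rose and 3 fell in Ripk3KO, and 3 rose and 2 fell in MlklKO, with medians of -0.56, -0.18 and 0.02. The pumps called in the knockouts, 6 and 5 of 13, are at or below the share of all genes. Abcb11, the bile salt export pump, changed by -1.73, -1.55 and -1.73, without overlap. Abcc1 (Mrp1), which is low in normal hepatocytes, rose by 2.55, 2.86 and 2.87, from 2.46 ± 0.966 to 14.6 ± 4.08 CPM in WT. Abcc5 (Mrp5), a nucleotide pump, rose by 2.32, 2.13 and 2.83. Abcc1 and Abcc5 are also expressed in leukocytes and fibroblasts, whose markers were higher in the same libraries, and their part in these values was not tested. Abcc6, a hepatocyte pump of the same family, changed by -1.02 in WT (adjusted p = 8.62e-06) and by -0.37 and -0.07 in Ripk3KO and MlklKO, which did not pass. Scaled to hepatocyte markers, 3, 6 and 5 of the uptake carriers rose and 3, 2 and 3 fell, with medians of 0.19, 0.46 and 0.49 beside all-gene medians of 0.70, 0.77 and 0.89. Of the pumps 5, 6 and 9 then rose and 1 fell in each genotype, with medians of 0.18, 0.62 and 0.93, where 62.0%, 63.1% and 65.9% of all genes were called higher. Under that scaling Slc10a1 (-1.14, -1.11 and -1.04), Slc22a30 (-1.33, -1.18 and -0.78) and Abcb11 (-0.95, -0.72 and -0.81) were still called lower in WT, Ripk3KO and MlklKO.

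**Figure D5:**
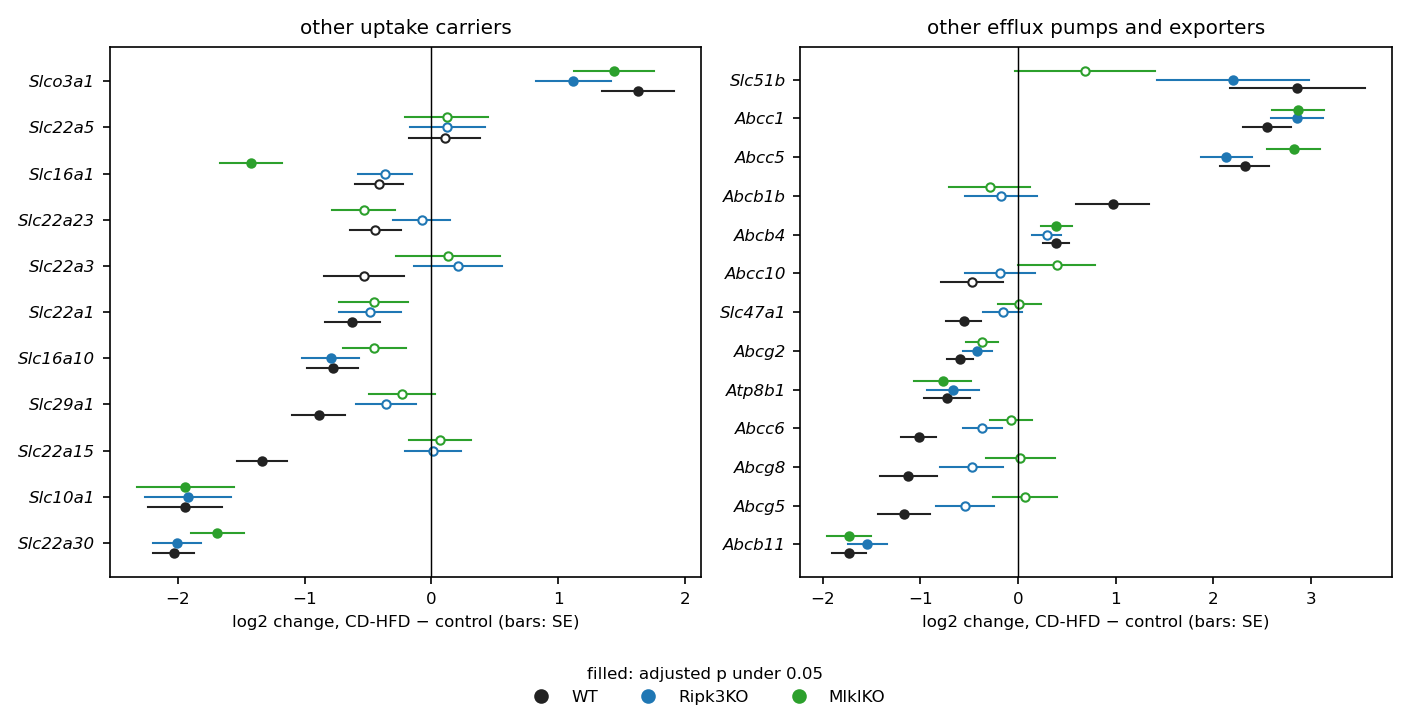
Log2 change on CD-HFD against control for the other uptake carriers and the other efflux pumps, by genotype, with SE bars. Slc10a1, Slc22a30 and Abcb11 lie left of 0 in each genotype (Slc10a1 at -1.94 in WT), and Abcc1 and Abcc5 lie right of 0 (2.55 and 2.32 in WT).

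The lists of regulators and of their known targets were described next to the members. Of 17 transcription factors that act on transporter genes, 10 fell and 0 rose on CD-HFD in WT, 12 fell in Ripk3KO and 7 fell in MlklKO, beside 24.1%, 21.7% and 20.3% of all genes called lower. Hnf4a, the master regulator of hepatocyte genes, changed by -0.69, -1.25 and -1.22, and Nr1h4, the bile acid receptor FXR, by -0.75, -0.64 and -0.88. Stat5b, the growth hormone effector, was lower in WT (-0.73) and did not pass in Ripk3KO (-0.19) or MlklKO (-0.27). The split depends on the scaling. When scaled to hepatocyte markers, 4 rose and 0 fell in WT, 3 rose and 1 fell in Ripk3KO, and 8 rose and 0 fell in MlklKO, beside 62.0%, 63.1% and 65.9% of all genes called higher, with Hnf4a at 0.11, -0.43 and -0.28. Of 12 NRF2 targets, 7 rose and 3 fell in WT and in Ripk3KO, and 6 rose and 5 fell in MlklKO. Cbr3 rose by 3.15, 3.55 and 2.42 and Nqo1 by 1.68, 1.64 and 1.79, whereas Gclc, which makes glutathione, was lower in WT (-0.79) and MlklKO (-1.72). Of the NRF2 targets, 10, 9 and 7 rose and 0, 0 and 2 fell when scaled to hepatocyte markers, and Gclc in WT was at 0.02. Of 10 targets of CAR and PXR, the xenobiotic receptors, 3 rose and 6 fell in WT and 2 rose and 5 fell in each knockout, with medians of -1.50, -1.33 and -1.42. With hepatocyte-marker scaling 3, 2 and 4 rose and 4, 4 and 5 fell, with medians of -0.64, -0.49 and -0.50. Ces2a went from 608 ± 77.7 to 30.1 ± 3.26 CPM in WT and Cyp2c29 changed by -6.15, while Cyp2b9, which is also female-biased, rose by 5.34. All 12 male-biased liver genes fell on CD-HFD in WT and MlklKO and 11 of 12 in Ripk3KO, with medians of -2.23 in WT, -1.91 in Ripk3KO and -2.39 in MlklKO. Hsd3b5 changed by -6.65 and Elovl3 by -5.82 in WT. With hepatocyte-marker scaling, 8 of the 12 fell in WT and in Ripk3KO and 9 in MlklKO, and none rose. Of 7 female-biased liver genes tested (of 12 listed), 3 rose and 2 fell under TMM in WT. In Ripk3KO 3 rose and 1 fell, and in MlklKO 5 rose and 0 fell. Scaled to hepatocyte markers, 4, 5 and 5 of these rose and 1, 1 and 0 fell.

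The genes whose log2 CPM followed each member most closely over the 44 libraries were found by Pearson's r, as a description without a test, since all libraries share the diet groups. For Slco1a1 they were Mup7 (r = 0.964), Sult2a8 (0.950) and Mup3 (0.949), the major urinary proteins being male-biased liver products. For Slco1b2 they were Akr1c14 (0.925), Pde3b (0.908) and Ghr (0.903), and for Slco2b1 Lactb2 (0.925), Ghr (0.919) and Gstz1 (0.917). Ghr, the growth hormone receptor, was among the 3 nearest for both carriers. Abcc4 was nearest to Cbr3 (0.856), Cd200 (0.815) and Ehf (0.809), and Abcb1a to Cd36 (0.904), Gpc1 (0.894) and Rtn4 (0.890). Slc22a7 was nearest to Nr1h3 (0.794), the oxysterol receptor LXRα. The values were lower for Abcc3 (Ces1d, 0.777) and Slco1a4 (Acsm5, 0.717). Slco1b2, Slco1a4 and Slco1a1 lie close together on chromosome 6 in the RefSeq gene order, and of these neighbours Slco1a1 changed by -4.12, Slco1b2 by -1.30 and Slco1a4 by -0.79 on CD-HFD in WT.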

How the data were processed

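Total RNA from liver was sequenced from strand-specific libraries, per the labels' protocols. The authors deposited whole-number read counts per Ensembl gene, not normalized, for 44 libraries; the submitters' processing notes name FastQC, STAR, HTSeq and the builds GRCm39 and mm39, with no versions. Symbols were matched for 34373 identifiers and not for 876, which held 0.0838% of counts.

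Genes were kept by filterByExpr (minimum count 10), leaving 14862 genes, and libraries were scaled by TMM (factors 0.799 to 1.34). All 44 libraries entered 1 fit with a mean per group in edgeR 4.0.16 (R 4.3.3), tested by quasi-likelihood F, with Benjamini-Hochberg adjustment over all genes in each of 19 contrasts and a threshold of 0.05. SEs were derived from F and the log2 change, or, for changes under 0.01, from the model. The test was also run on simulated data in which few genes changed. Many changed with diet here, so that run does not bear on the scaling. Lengths for CPM per kb are exon unions in GENCODE M21. Replicates are labelled as separate samples, with no statement on cages or litters, so p-values measure only the spread between these samples, which may be technical. Listed genes were named if called, changed by at least 1 on the log2 scale, with a mean log2 CPM of 1 or more, without overlap, at most 2 each way per list; Abcb1b, Ahsg, Stat5b and Nr1h4 were also named outside this rule, after their values were seen. A few listed items are not reported here. Alternatives were RLE size factors, library size, no filter, DESeq2 (1.42.0), compared groups only, a robust fit, a replicate block, a clock covariate, and leaving out libraries; scaling to hepatocyte markers, low-clock libraries and WT control without replicates 5 and 6 were added after seeing the data. The members and lists were chosen with earlier results of these data known.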

Additional observations from a re-analysis of the deposited data

Results flagged for a closer look

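Dixon's test on the members' values in groups of 4 to 10 libraries singled out 3 of 63 groups, where chance alone gives about 1 in 20. Slco1a1 in WT CD-HFD replicate 1 was at 58.9 CPM, against 7.57 to 23.5 CPM in the other 5 libraries. Slco2b1 in WT CD-HFD replicate 6 was at 45.3 CPM, against 63.5 to 70.4 CPM in the other 5. Slco2b1 in MlklKO CD-LFD replicate 3 was at 154.3 CPM, against 119.2 to 121.3 CPM in the other 3. None of the 36 interaction tests passed, so no member was singled out for a difference between genotypes.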

How the results depend on the processing

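When 1 library was left out, 2057 values of single members stayed on their side of the threshold, 15 gained a call and 52 lost one. Leaving out 1 library, members called numbered 5 to 6, 1 to 4 and 1 to 3 for CD-LFD against control in WT, Ripk3KO and MlklKO, 8 to 9, 6 to 6 and 5 to 5 on CD-HFD, and 4 to 5, 1 to 4 and 2 to 4 for CD-HFD against CD-LFD. Against WT on control they numbered 0 to 1 in Ripk3KO and 0 to 4 in MlklKO, and in both MlklKO interactions 0 to 1; the other knockout contrasts and interactions gave 0 to 0.

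Scaled to hepatocyte markers, members called went to 3 (WT CD-LFD; 36.8% of all genes called), 5 (WT CD-HFD; 65.7%), 1 (Ripk3KO CD-LFD; 36.4%), 3 (WT CD-HFD against CD-LFD; 31.0%), 5 (MlklKO against WT on control; 32.0%) and 1 (the same on CD-LFD; 14.2%). MlklKO CD-HFD went from 5 to 6 (68.1%), and Ripk3KO CD-HFD stayed at 6 (65.6%) with Abcc2 and Abcc3, both higher, in place of Slco1b2 and Slco2b1. Among values from control that were called under TMM or under this scaling, the sign turned for Abcc2 (0.71) and Abcc3 (0.59) in Ripk3KO and for Slco1a4 (0.80), Slco1b2 (0.11) and Abcc3 (0.65) in MlklKO, all on CD-HFD. This follows from the construction, which moves all genes. Over all contrasts, scaling to hepatocyte markers ended 17 calls, added 8 and turned the sign of 5 member values. Not all of the added calls are named here, and the counts of members above leave out CD-HFD against CD-LFD in the knockouts. The share of called genes that were higher on CD-HFD was 49.4%, 53.1% and 55.1% in WT, Ripk3KO and MlklKO under TMM, 87.0%, 90.3% and 89.7% by library size alone, and 94.4%, 96.2% and 96.7% scaled to hepatocyte markers; on CD-LFD it was 49.6%, 58.0% and 51.9%, and 84.9%, 88.4% and 66.1% by library size.

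By library size alone, calls were lost for Slco1a4 and Slco1b2 in WT, Slco1a1 in Ripk3KO (-1.04, adjusted p = 0.0721) and Abcc3 in MlklKO (-0.35, adjusted p = 0.127) on CD-LFD, for Slco1a4 and Slc22a7 in WT and Slco1b2 in MlklKO on CD-HFD, and, for CD-HFD against CD-LFD, for Slc22a7 in WT (-0.56), Slco2b1 in Ripk3KO (-0.42) and Slco1b2 in MlklKO (-0.35). Fits on the compared groups alone lost 7 calls and gained 4. Lost were Slco1a4 (-0.69) and Abcb1a (1.24) in WT and Abcb1a in Ripk3KO (1.18) on CD-LFD, Slco1b2 in MlklKO on CD-HFD, Abcc4 in Ripk3KO for CD-HFD against CD-LFD (1.36), and Slco1b2 and Abcc3 for MlklKO against WT on control. Gained were Slco1a1 in MlklKO on CD-LFD (-0.85, adjusted p = 0.0134) and, for CD-HFD against CD-LFD, Slco1b2 (-0.62) and Slc22a7 (-0.90) in Ripk3KO and Slc22a7 in MlklKO (-0.95). Without the count filter Slco1b2 in WT (-0.53, adjusted p = 0.0522) and Abcc3 in MlklKO (-0.49, adjusted p = 0.0829) on CD-LFD and Slco2b1 in Ripk3KO for CD-HFD against CD-LFD (-0.63, adjusted p = 0.0915) also lost their calls. Slc22a7 in WT for CD-HFD against CD-LFD lost its call with RLE factors (adjusted p = 0.0547), by DESeq2 (0.057) and with the clock covariate (0.0734). The clock covariate left 3 members called for CD-HFD against CD-LFD in WT. On control, Ripk3KO against WT gave 1 without the count filter (490 genes called in all) and 1 by DESeq2 (926). MlklKO against WT gave 1 without the filter (3261 genes called in all) and 0 on the compared groups alone (1739). Without WT control replicates 5 and 6, each CD-HFD interaction gave 1 (Abcc3), where 149 genes were called in Ripk3KO and 993 in MlklKO. The cause was not tested. Same-numbered libraries did not pair: over 64 pairs r was -0.330 to 0.545, 22 were above 0.1, and 19 libraries matched best with their own number. With the replicate number as a block, members called in WT, Ripk3KO and MlklKO were 6, 3 and 4 for CD-LFD and 8, 6 and 5 for CD-HFD; Abcb1a (0.98, adjusted p = 0.0589) lost and Abcc3 (-0.54, adjusted p = 0.0376) gained its call in Ripk3KO on CD-LFD. Depth limits Abcb1a and Abcc4, whose WT control libraries held 0 to 17 and 5 to 18 counts.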
